A study of Mus musculus with 12 samples.

Results

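The genes described here run the cell cycle, copy DNA and supply its building blocks, and they were read in mouse liver. They were chosen by name, 39 in all: G1 cyclins and their kinases, cell cycle inhibitors with Rb1 and E2f1, p53 targets, replication fork proteins, enzymes of nucleotide supply including ribonucleotide reductase, and genes of S phase and mitosis. Of the 39 genes, 38 had a probe set with 1 gene symbol, out of 12393 such genes on the array. Ccnb1, a mitotic cyclin, had none. Each gene was read from its probe set with the highest mean over the 12 arrays. A gene was tested where its value lay above the 40th percentile of its array on at least 3 of the 12 arrays, and 27 of the 38 members did so, as did 8469 of all genes.

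The study compared livers of adult male C57BL6/J mice aged 8 weeks in 4 groups of 3 mice. The groups were liver-null mice given APAP (mice 2, 3 and 17), liver-null mice given saline (mice 4, 5 and 16), wildtype mice given APAP (mice 12, 13 and 14) and wildtype mice given saline (mice 8, 9 and 10). APAP is acetaminophen, a drug whose overdose injures hepatocytes. It was injected into the peritoneum at 100 mg/kg, the vehicle was PBS, and livers were taken 8 hours later. In liver-null mice a conditional-null allele of Txnrd1 (thioredoxin reductase 1) was disrupted by albCre, a Cre recombinase driven by the albumin promoter, which is active in hepatocytes. Other cells of the liver keep the gene, and whether wild-type mice carried Cre is not stated in the labels.

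Values are log2 expression values, so a difference of 1 is a doubling. Probe sets bind with different strength, and levels are compared between livers and never between genes. The 40th percentile of an array lay between 2.42 and 2.48, and its median between 2.91 and 2.99. Differences were tested with limma over all 12 arrays, with p-values adjusted over the 8469 genes, and a gene was called at an adjusted p under 0.05. Brightness split the arrays in a way no label gives: mice 10, 14, 16 and 17, with 1 from each group, had upper quartiles of 5.49 to 5.58, and the other 8 had 5.73 to 5.85. These are called the smaller and the larger array set. Hepatocyte markers averaged 12.25 to 12.44 per liver over 9 genes, far above the upper quartile. Txnrd1 itself, at its probe set with the highest mean, was not lower in the livers labelled liver-null. It averaged 10.40 ± 0.11 in them and 9.64 ± 0.14 in wild-type livers (SD, n = 6 each), and the position of its probe set relative to the deleted part was not analysed here, so this value does not check the labels. Its other probe sets, with means of 1.89 and 1.45, lay below the 40th percentile and differed by -0.15 and -0.03.

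As background, a cell enters the cycle when D cyclins with Cdk4 or Cdk6, and then E cyclins with Cdk2, phosphorylate Rb1 and release E2F factors, which switch on genes of DNA replication. The MCM proteins form the helicase that is loaded on origins and opens the DNA, and Pcna clamps the polymerases to it. Ribonucleotide reductase, made of Rrm1 and Rrm2, makes deoxynucleotides and takes its electrons from thioredoxin, which Txnrd1 reduces, or from glutaredoxin, which is served by glutathione and Gsr. Most hepatocytes of an adult liver are at rest and can return to the cycle after injury or loss of tissue, and Ccnd1 is a marker of that return.

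Because Mcm6 and Mcm7 turn up in the results below, the 250 bases before their start sites are printed here, 5′ to 3′ on the gene's strand, from RefSeq (GRCm38.p6). Capitals mark E2F-like motifs, searched as TTCCCGC, as TTTCGCG or as TTTGGCG on either strand. The Mcm6 sequence lies at chr1:128359706-128359955 on the minus strand. The Mcm7 sequences, for a pair of annotated starts, lie at chr5:138171267-138171516 and chr5:138171884-138172133, also on the minus strand.
Mcm6: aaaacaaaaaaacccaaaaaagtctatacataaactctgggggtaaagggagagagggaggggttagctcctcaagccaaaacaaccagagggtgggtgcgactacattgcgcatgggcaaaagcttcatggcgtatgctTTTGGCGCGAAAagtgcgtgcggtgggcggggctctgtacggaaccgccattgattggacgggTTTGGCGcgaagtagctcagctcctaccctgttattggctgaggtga
Mcm7, first: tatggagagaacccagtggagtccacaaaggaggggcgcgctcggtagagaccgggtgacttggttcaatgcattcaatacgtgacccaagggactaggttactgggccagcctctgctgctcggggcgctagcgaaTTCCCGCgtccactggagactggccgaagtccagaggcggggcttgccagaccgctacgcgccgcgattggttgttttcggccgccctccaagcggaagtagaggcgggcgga
Mcm7, second: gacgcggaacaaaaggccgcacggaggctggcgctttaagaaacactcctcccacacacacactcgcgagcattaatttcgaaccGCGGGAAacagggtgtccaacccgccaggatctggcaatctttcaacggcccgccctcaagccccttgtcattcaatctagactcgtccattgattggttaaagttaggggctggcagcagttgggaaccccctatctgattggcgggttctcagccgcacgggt
Mcm6 has 3 matches, at 110, 105 and 47 bases before the start, and the first pair overlap on opposite strands. Each Mcm7 sequence has 1. Of the members, 32 matched the promoter table by symbol, with 36 promoters, and Ccnd1 was not among them. E2F-like motifs stood in 25% of these 36, in 4 of the 7 promoters of the replication fork genes, and in 5.58% of all 32851 promoters of the table. The CHR motif of mitotic genes was searched as TTTGAA on either strand. It stood in 19.4% of the 36 member promoters, near the 16% of all promoters. Among the 11 promoters of the S phase and mitosis genes it stood in 6. CCAAT, on either strand, stood in 66.7% of member promoters and 33.8% of all. A match describes letters in this window and is not a measured binding site.

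Across both treatments, 2 of the 27 tested members differed between the genotypes, and both fell in the livers labelled liver-null: Ccnd1, the D cyclin named above, and Mcm6, a subunit of the replicative helicase. With limma 0 members rose. The share of calls among all 8469 genes in this comparison was 4.46% (378 genes), with 2.18% called lower and 2.28% called higher. The median difference of the 27 members was 0.02, against -0.01 over all genes tested, and 15 were positive and 12 negative.

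Ccnd1 had log2 values of 3.71, 4.43 and 4.63 in the APAP livers labelled liver-null, against 6.23, 6.40 and 6.69 in APAP wild-type livers. Under saline it had 2.89, 4.84 and 4.60 in livers labelled liver-null, against 6.80, 5.61 and 6.41 in wild-type livers. The highest of the 6 livers labelled liver-null lay below the lowest of the 6 wild-type livers. Ccnd1 averaged 4.18 ± 0.74 in livers labelled liver-null and 6.36 ± 0.42 in wild-type livers (SD, n = 6 each). It fell by 2.17 on the log2 scale (SE 0.33, 95% interval -2.89 to -1.45, limma adjusted p = 0.00425), which is 4.51-fold lower. The difference was -2.18 under APAP and -2.16 under saline, and it was -2.29 within the larger array set and -1.93 within the smaller. The other 2 probe sets of Ccnd1 were lower too, by differences of -1.60 (adjusted p = 0.00271) and -0.59 (adjusted p = 0.0409, both over all probe sets tested).

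Mcm6 had log2 values of 2.80, 2.94 and 2.57 in the APAP livers labelled liver-null, against 3.59, 3.62 and 3.48 in APAP wild-type livers. Under saline it had 2.59, 2.91 and 2.75 in livers labelled liver-null, against 3.97, 3.24 and 3.33 in wild-type livers. Here too the 6 livers of each genotype did not overlap. Mcm6 fell by 0.78 on the log2 scale in livers labelled liver-null (SE 0.13, 95% interval -1.06 to -0.49, limma adjusted p = 0.00687), 1.71-fold lower, with group means of 2.76 ± 0.15 in livers labelled liver-null and 3.54 ± 0.26 in wild-type livers (SD, n = 6 each). The lower values stand close to the 40th percentile of the arrays, so the fold may be understated. A second Mcm6 probe set differed by -0.82 (adjusted p = 0.00927).

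**Figure D1:**
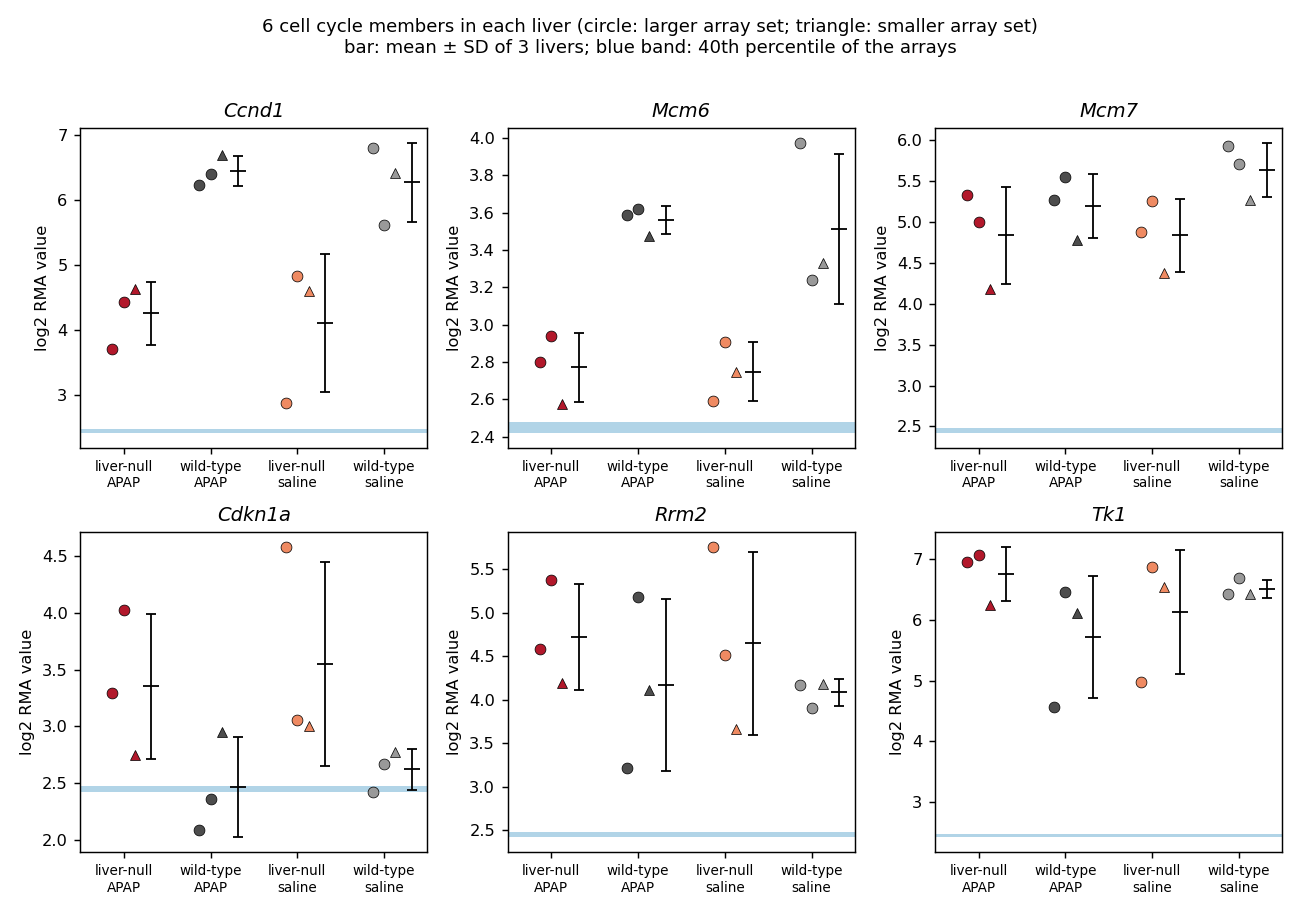
Log2 RMA values of 6 members in each of the 12 livers, by group, with the mean and SD of 3 livers as bars and the 40th percentile of the arrays as a blue band. For Ccnd1 and Mcm6 every liver labelled liver-null lies below every wild-type liver, while the groups overlap for Rrm2 and Tk1.

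Within each treatment, where 3 livers met 3, limma called 0 of the 27 members under APAP and 0 under saline. Of all genes, 0.768% were called under APAP and 0.638% under saline. At an unadjusted limma p under 0.05 there were 4 members and 764 of all 8469 genes under APAP. Under saline there were 5 members and 1034 genes. Ccnd1 had a limma adjusted p = 0.0618 under APAP and 0.0605 under saline. Mcm6 had a limma adjusted p = 0.0900 under APAP and 0.0903 under saline. With array set as a covariate, the limma fit called Ccnd1 and Mcm6 lower under APAP (2.18% of all genes called) and Ccnd1, Mcm6 and Mcm7 lower under saline (2.87%). The values of the groups did not overlap for 9 of 27 members under saline, where 15.2% of all genes did not overlap. Ccnd1, Ccne1, Cdk2, Mcm4, Mcm6 and Mcm7 were the lower ones in livers labelled liver-null, and Rb1, Cdkn1a and Birc5 the higher ones. Under APAP this held for 5 of 27 members, against 13.9% of all genes: Ccnd1, Mcm6 and Rrm1 lay lower, and Ccnd3 and Birc5 higher. Over all 6 livers a genotype it held for 3 members, Ccnd1, Mcm6 and Birc5, against 4.36% of all genes. Birc5, or survivin, acts in mitosis and blocks cell death. It had a difference of 0.27 (SE 0.09, adjusted p = 0.117), with means of 2.55 ± 0.16 in livers labelled liver-null and 2.27 ± 0.09 in wild-type livers (SD, n = 6 each), near the 40th percentile. Birc5 lay above the 40th percentile on 4 arrays, those of mice 2, 3, 4 and 5, all labelled liver-null. It passed the filter only through the genotype where it is higher, so its place in these counts is no support for a difference.

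**Figure D2:**
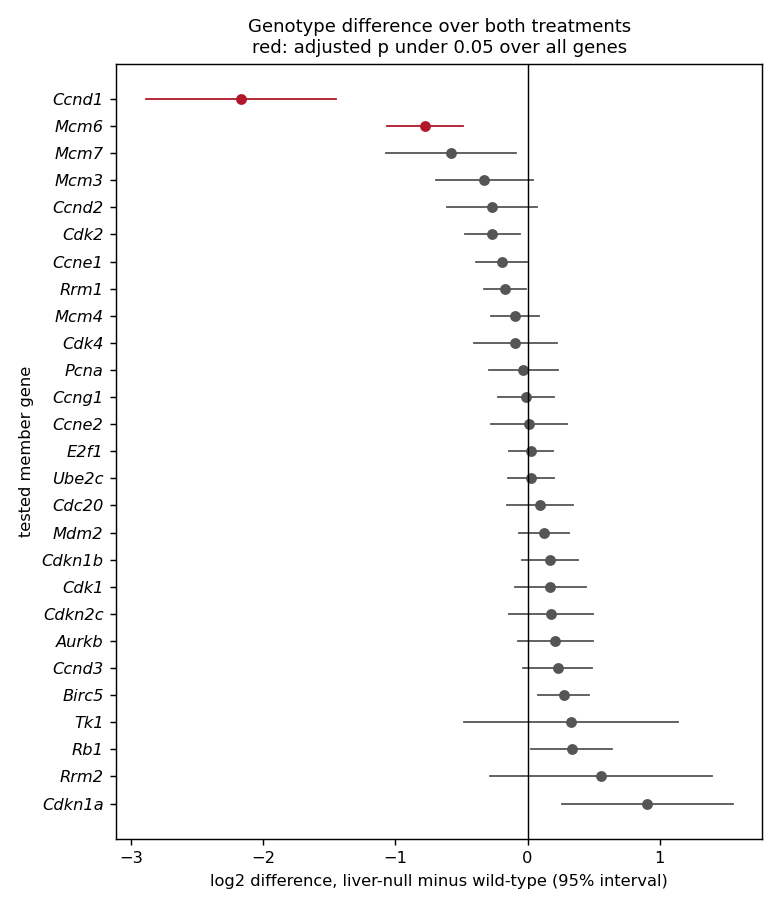
Fitted log2 difference, livers labelled liver-null minus wild-type over both treatments, with its 95% interval, for the 27 tested members. The intervals of Ccnd1 and Mcm6, in red, are the ones with an adjusted p under 0.05, and Cdkn1a has the highest point, at 0.91.

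Among the other G1 cyclins and kinases, 0 of 6 tested genes passed the test. Ccnd2, a second D cyclin, had a difference of -0.27, and all 6 of its tested probe sets were negative, from -0.06 to -0.27. Ccnd3, the third D cyclin, went the other way at 0.23 (95% interval -0.03 to 0.49). Ccne1 was at -0.19 and its partner kinase Cdk2 at -0.27 (95% interval -0.48 to -0.06, adjusted p = 0.162), and Cdk4 at -0.09. The estimates of the D cyclins thus differed in sign, but those of Ccnd2 and Ccnd3 were not called. Ccnd2 was at -0.03 within the larger array set and -0.74 within the smaller. Cdk6 was not tested, since its values of 1.60 to 2.00 lay below the 40th percentile on all arrays.

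Of the 7 replication fork members, 5 were tested. Over both treatments all 5 were negative, with a median of -0.33 against -0.01 over all genes tested. Of the 5, 1 passed the test, Mcm6, where 4.46% of all genes were called. Under APAP alone Mcm4 was at 0.002 and Pcna at -0.01. Mcm2 and Mcm5 did not pass the filter on low values and were not tested. In a limma fit without the filter, Mcm2 was at -0.17 (adjusted p = 0.542) and Mcm5 at -0.24 (adjusted p = 0.417). At these low signals a difference could be missed. Mcm7, another helicase subunit, had 5.32, 5.0 and 4.18 in the APAP livers labelled liver-null, against 5.26, 5.55 and 4.77 in APAP wild-type livers. It had 4.87, 5.25 and 4.37 in saline livers labelled liver-null, against 5.92, 5.71 and 5.27 in saline wild-type livers. Genotypes overlapped under APAP, and in every group the liver of the smaller array set was the lowest. The Mcm7 difference was -0.58 (SE 0.22, adjusted p = 0.201), and with array set as a covariate it was called (adjusted p = 0.0068). That fit called 3 of the 27 members over both treatments, Ccnd1, Mcm6 and Mcm7, where 10.4% of all genes were called. Within the array sets Mcm7 differed by -0.50 in the larger and -0.75 in the smaller. Its 4 probe sets were all negative, from -0.19 to -0.58. Mcm3 was at -0.33 and Mcm4 at -0.10, and Pcna, which also serves in DNA repair, was at -0.03 (95% interval -0.30 to 0.23).

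The inhibitors, Rb1 and E2f1 did not pass the test. Cdkn1b (p27) was at 0.17, Cdkn2c (p18) at 0.18, Rb1 at 0.34 (95% interval 0.03 to 0.64, adjusted p = 0.241) and E2f1 at 0.02, so that all 4 were positive. Rb1 was low on mice 8 and 10, wild-type livers given saline, at 3.95 and 3.77, while the other 10 livers had 4.30 to 4.87.

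Cdkn1a (p21), an inhibitor of cyclin-dependent kinases that p53 induces, had the highest difference of the members but did not pass the test. It had log2 values of 3.29, 4.02 and 2.75 in the APAP livers labelled liver-null, against 2.08, 2.36 and 2.95 in APAP wild-type livers. It had 4.58, 3.05 and 3.0 in saline livers labelled liver-null, against 2.42, 2.66 and 2.77 in saline wild-type livers. Mice 3 and 4 stood highest, and the genotypes overlapped under APAP. Cdkn1a lay above the 40th percentile on 9 of the 12 arrays, and mice 8, 12 and 13, all wild-type, lay below it. The difference was 0.91 (SE 0.30, 95% interval 0.26 to 1.56, adjusted p = 0.122). It was 1.35 within the larger array set and 0.01 within the smaller. A second Cdkn1a probe set differed by 0.43, with wild-type values of 1.84 to 2.34, all below the 40th percentile. The other p53 targets lay close to 0: Mdm2, which degrades p53, was at 0.13 and Ccng1, cyclin G1, at -0.01. Mouse 4 also had the lowest Ccnd1, at 2.89, and the highest Rrm2, at 5.76. Neutrophil markers averaged 4.48 over 3 tested genes in this liver, against 2.81 to 3.81 in the other 11, and their part in these values was not tested.

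**Figure D3:**
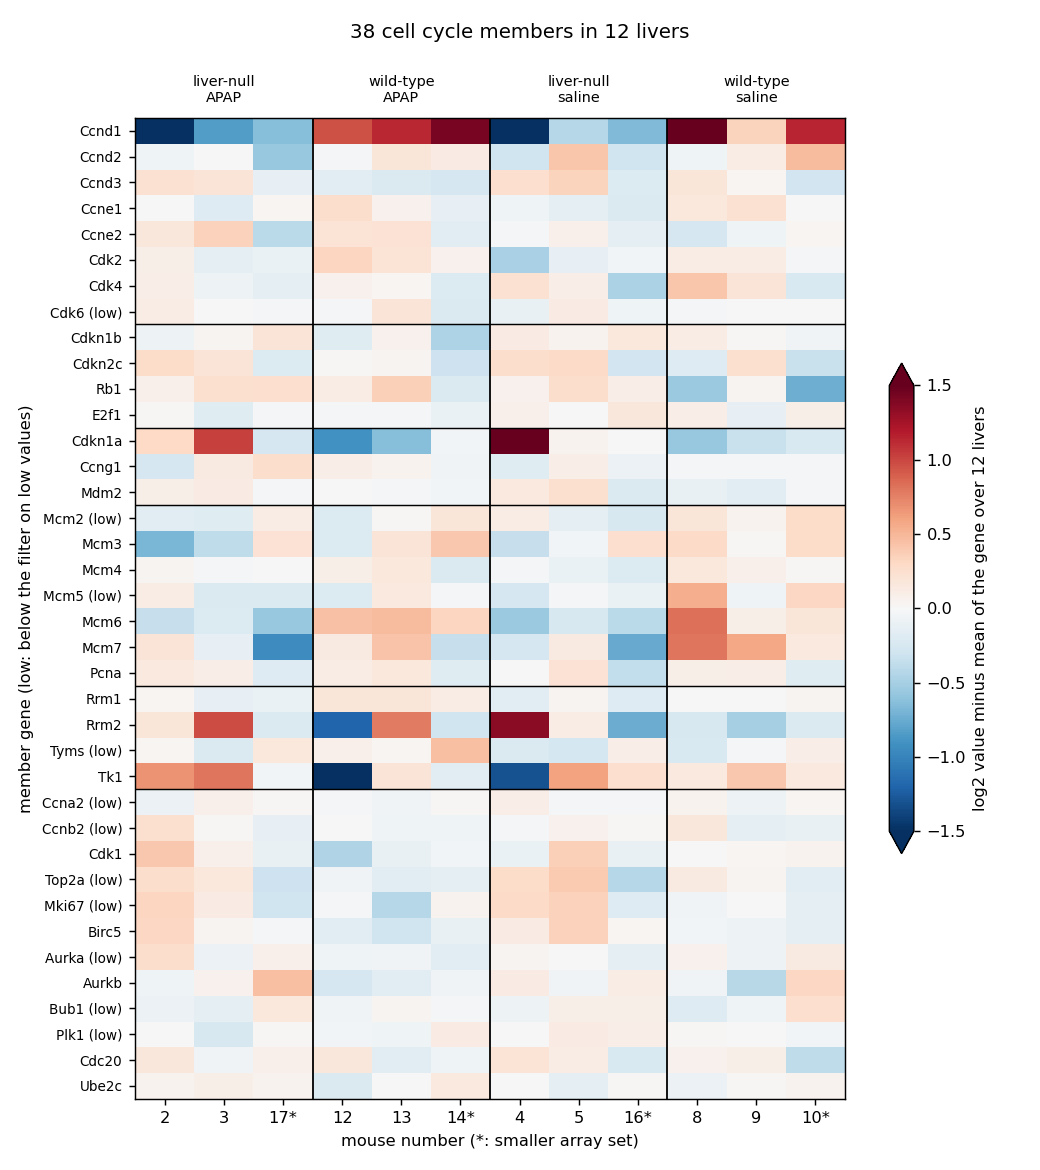
Log2 value minus the mean of the gene over 12 livers for the 38 members on the array, by role from top to bottom, with each column a mouse. Ccnd1 and Mcm6 are low in all 6 livers labelled liver-null. Cdkn1a and Rrm2 stand high in mice 3 and 4, and Rrm2 also in mouse 13, a wild-type liver. Tk1 stands low in mice 4 and 12.

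The subunits of ribonucleotide reductase did not pass the test, and their estimates over both treatments had opposite signs. Rrm1, the large subunit, had 3.60, 3.46 and 3.47 in the APAP livers labelled liver-null, against 3.76, 3.76 and 3.69 in APAP wild-type livers. It had 3.41, 3.62 and 3.39 in saline livers labelled liver-null, against 3.57, 3.57 and 3.62 in saline wild-type livers. The groups did not overlap under APAP and did under saline, and the difference over both was -0.17 (SE 0.07, 95% interval -0.33 to -0.01, adjusted p = 0.249). Rrm2, the small subunit made in S phase, had 4.59, 5.38 and 4.19 in the APAP livers labelled liver-null, against 3.21, 5.18 and 4.11 in APAP wild-type livers. It had 5.76, 4.52 and 3.67 in saline livers labelled liver-null, against 4.17, 3.90 and 4.19 in saline wild-type livers. Its values spread widely within 3 of the 4 groups, and the difference of 0.56 had a 95% interval of -0.29 to 1.40 (adjusted p = 0.547). It was 0.95 within the larger array set and -0.22 within the smaller, so its sign was not stable. Other Rrm2 probe sets differed by 0.29 and 0.03, and a second Rrm1 probe set by -0.13. The probe sets at 0.03 and -0.13 had low means, at 2.13 and 2.14. Rrm2b, the p53-induced small subunit, averaged 3.51 ± 0.14 in livers labelled liver-null and 3.25 ± 0.20 in wild-type livers (SD, n = 6 each), a difference of 0.26 (adjusted p = 0.219). Tk1, thymidine kinase of the salvage route, was at 0.33 (95% interval -0.48 to 1.14), and Tyms, which makes thymidylate, was below the 40th percentile on all arrays.

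Among the electron donors of the enzyme, 2 of 8 tested genes rose and 0 fell, where 4.46% of all genes were called. The 2 include Txnrd1, the gene disrupted in liver-null mice. Gsr, glutathione reductase, averaged 7.71 ± 0.16 in livers labelled liver-null and 6.85 ± 0.09 in wild-type livers (SD, n = 6 each), higher by 0.86 on the log2 scale (limma adjusted p = 0.000243). Txnrd1 was higher by 0.75 at its probe set with the highest mean (limma adjusted p = 0.000858), and its other probe sets were not higher. Gsr and Txnrd1 were both called within each treatment as well. Txn1, thioredoxin, was at 0.15, Glrx at -0.12, Glrx2 at 0.12, Txn2 at -0.06, Txnrd2 at 0.28 and Txnrd3 at -0.40, none of them called.

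Of the 12 S phase and mitosis members on the array, 7 were not tested: Ccna2, Ccnb2, Top2a, Mki67, Aurka, Bub1 and Plk1 lay below the 40th percentile on all arrays. Mki67, a marker of cycling cells, had values of 1.41 to 2.18 and Top2a, which untangles DNA, 1.49 to 2.31. Over both treatments the 5 tested genes, Cdk1, Birc5, Aurkb, Cdc20 and Ube2c, were all positive, from 0.03 to 0.27, and none was called. Within the smaller array set Cdk1 was at -0.12 and Ube2c at -0.06, while Birc5, Aurkb and Cdc20 were positive. Under saline Ube2c was at -0.03 and the others were positive. Birc5 passed the filter only through livers labelled liver-null. The 7 genes below the filter were not called over both treatments in a fit without it, and a difference could be missed at these signals.

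Other genes of the same pathways were taken from lists of 118 tested genes. Of these, 3 rose and 1 fell over both treatments, where 4.46% of all genes were called. The 3 include Txnrd1, with the limit given above. Beside Gsr and Txnrd1, Ccng2, a cyclin linked to cell cycle arrest, rose to 4.91 ± 0.21 in livers labelled liver-null, against 4.08 ± 0.31 in wild-type livers (SD, n = 6 each), higher by 0.83 (limma adjusted p = 0.00969). It was 1 of 23 tested genes among other cyclins, kinases, inhibitors and the E2F and Rb families. Gadd45a, a stress-induced p53 target, fell to 3.36 ± 0.31, against 4.44 ± 0.65 in wild-type livers (SD, n = 6 each), by 1.08 on the log2 scale (limma adjusted p = 0.0478). It was 1 of 19 tested genes among other p53 targets, and mouse 12, a wild-type liver given APAP, overlapped the other genotype at 3.27.

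In the remaining lists no gene was called. Among 29 other replication genes, Mcm10, a factor that starts replication, was at -0.54 and Rpa3, which binds single-stranded DNA, at -0.43. Among 13 other mitosis genes, Spc25, a kinetochore protein, was at -0.85 (adjusted p = 0.0580) and Smc4, a condensin subunit, at 0.30. Among 16 other deoxynucleotide enzymes, Ctps, which makes CTP, was at 0.53 and Dck, deoxycytidine kinase, at -0.47. Among 10 genes of the DNA damage checkpoint, Gadd45g, a stress-induced gene, was at 2.00 (95% interval 0.57 to 3.43, adjusted p = 0.122) and Atr, a checkpoint kinase, at 0.29. With array set as a covariate, 10 of the 118 genes were called higher and 7 lower, where 10.4% of all genes were called.

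In bulk liver, fewer cells of a type and less RNA per cell cannot be told apart. Markers of stellate cells and fibroblasts were lower in livers labelled liver-null for 9 of 9 tested genes. The median difference over all genes tested was -0.01. Of the 9, 1 was called, Pdgfrb (3.15 ± 0.14 in livers labelled liver-null and 3.76 ± 0.29 in wild-type livers, SD, n = 6 each), where 4.46% of all genes were called. The mean level of these markers per liver was 4.40 to 4.75 in APAP and 4.31 to 4.67 in saline livers labelled liver-null, against 4.68 to 4.92 in APAP and 4.73 to 5.15 in saline wild-type livers. Their part in the Ccnd1 and Mcm6 differences was not tested. Of the hepatocyte, endothelial, and Kupffer cell and macrophage markers, 0 of 9, 0 of 8 and 0 of 10 tested genes were called, and 0 of the 10 tested markers of cholangiocytes, neutrophils, lymphocytes and erythroid cells. These counts stand beside the same 4.46% of all genes.

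APAP at 8 hours gave 0 calls among the 27 members in either genotype. Limma called 0 of 8469 genes (0%) for APAP against saline in livers labelled liver-null, in wild-type livers, over both and for the interaction of genotype and APAP. At an unadjusted p under 0.05 there were 0 members and 59 genes in livers labelled liver-null, 1 member and 143 genes in wild-type livers, 0 members and 102 genes over both, and 0 members and 109 genes for the interaction. The 1 member was Rb1, at 0.50 in wild-type livers (95% interval 0.07 to 0.94, adjusted p = 1.00), against 0.05 in livers labelled liver-null. Values of APAP and saline livers did not overlap for 2 of 27 members among livers labelled liver-null (Mcm4 and Ube2c, both higher, against 4.89% of all genes). Among wild-type livers they did not overlap for 2 of 27 members as well (Rrm1 higher and Cdk1 lower, against 5.02% of all genes). Ccnd1 differed by 0.15 in livers labelled liver-null (95% interval -0.87 to 1.17) and by 0.17 in wild-type livers (95% interval -0.85 to 1.19). Its interaction was -0.02 (95% interval -1.46 to 1.42).

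Tk1 had the widest APAP differences. It had 6.95, 7.08 and 6.24 in APAP livers labelled liver-null, against 4.97, 6.88 and 6.54 in saline livers labelled liver-null. It had 4.57, 6.47 and 6.11 in APAP wild-type livers, against 6.42, 6.69 and 6.43 in saline wild-type livers. Mouse 4, labelled liver-null and given saline, and mouse 12, wild-type and given APAP, stood below 5 and the other 10 livers above 6. The difference was 0.63 in livers labelled liver-null and -0.80 in wild-type livers, and the interaction of 1.42 had a 95% interval of -0.19 to 3.04 (limma adjusted p = 0.999). Without mouse 4 the difference in livers labelled liver-null was 0.048 and the interaction 0.845, and without mouse 12 the difference in wild-type livers was -0.22 and the interaction 0.851. Leaving out each array in turn gave 0.048 to 1.00 in livers labelled liver-null and -1.17 to -0.22 in wild-type livers. Mcm7 was at 0.00 in livers labelled liver-null and -0.44 in wild-type livers, where it ranged from -0.62 (without mouse 10) to -0.23 (without mouse 14) with an array left out. Mcm3 was at -0.24 in livers labelled liver-null and -0.06 in wild-type livers. In livers labelled liver-null it was -0.04 without mouse 2, -0.09 without mouse 16, -0.39 without mouse 4 and -0.49 without mouse 17. Cdkn1a was at -0.19 in livers labelled liver-null and -0.16 in wild-type livers.

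**Figure D4:**
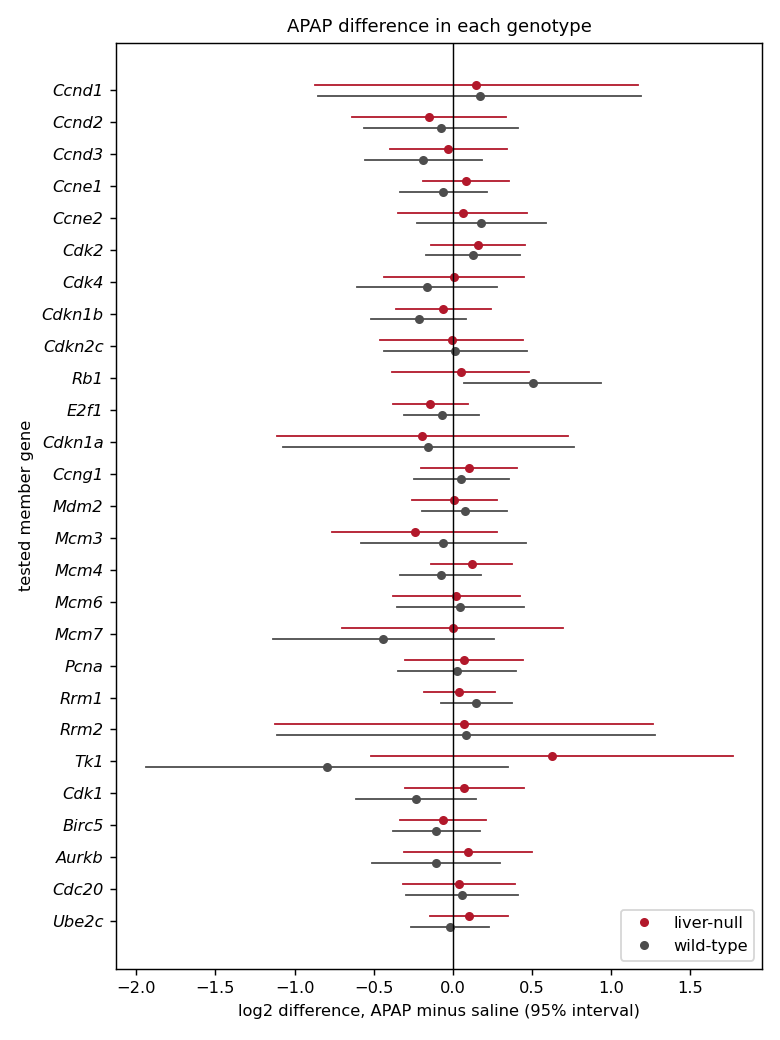
Fitted log2 difference, APAP minus saline, with its 95% interval, for the 27 tested members, with livers labelled liver-null in red above wild-type livers in grey. The intervals hold 0 for every member except Rb1 in wild-type livers, and Tk1 lies at 0.63 in livers labelled liver-null and -0.80 in wild-type livers.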

How the data were processed

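The authors deposited log2 expression values per probe set made with RMA, which corrects background, normalizes and summarises Affymetrix probes, per the submitters' processing notes. The sources used here do not say which version of RMA was run, or if it took all arrays at once. The labels' protocols give total liver RNA amplified to biotin-labelled cRNA. Of 22690 probe sets, 20380 have 1 gene symbol in the platform annotation and were used. No further normalization was applied.

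Group means of the 12 arrays were fitted with limma 3.58.1 in R 4.3.3 (eBayes, 8 residual degrees of freedom), and 7 comparisons were tested two-sided with Benjamini-Hochberg adjustment over 8469 genes. SE is that of the fitted log2 difference, and intervals are 95%. Precision is limited by the 3 arrays per group. The fit was tested on simulated data.

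The members and lists were chosen with earlier results of these data known. Members were described in full where called or among the 3 largest differences of a comparison. In other lists up to 4 called genes per direction were named, or else the 2 largest differences. Genes described beyond this rule were chosen after their values were seen. Alternatives were other filters, array set as a covariate or the larger set alone, other probe set rules, normalizations and weights, and leaving out each array. Mice of a group are described as biological replicates in the design text.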

Additional observations from a re-analysis of the deposited data

How the results depend on the processing

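No paired analysis was possible because no replicate number is shared between the groups. Over both treatments the count of 2 members called stayed at 2 when any array was left out, was 1 (Ccnd1) with a filter on the mean over arrays, where Mcm6 was not tested, and 8 with array weights (Ccnd1, Mcm6, Ccne1 and Cdk2 lower, and Birc5, Ccnd3, Cdkn1a and Mdm2 higher), a fit that called 1409 of all 8469 genes. Under APAP the count of 0 was 2 with array set as a covariate, 1 with quantile normalization, with array weights (210 of all genes called), with the trended robust eBayes and with the arrays compared alone, and 0 to 1 with an array left out (1 without mouse 8, Mcm6, or without mouse 4, Ccnd1). Under saline the count of 0 was 3 with array set as a covariate, 2 with the mean of all probe sets, 5 with array weights (1323 of all genes called) and 1 with a trended robust eBayes, and 0 whichever array was left out. The cause was not tested. Ccnd1 over both treatments ranged from -2.35 to -1.46 over 22 alternatives and Mcm6 from -0.85 to -0.61 over 21, each called in all of them. Cdkn1a for APAP against saline, never called, turned positive in livers labelled liver-null at 0.44 with array weights and ranged from -0.53 to 0.33 with an array left out. Over both genotypes it turned to 0.0909 with array weights and ranged from -0.34 to 0.0853 with an array left out. For APAP against saline and the interaction, members called were 0 in every alternative. Genes called in the whole table varied more: 65 under APAP against 21 to 210, 54 under saline against 10 to 1323, 378 over both against 208 to 1409, and for APAP against saline 0 to 1. Arrays give no count of reads, and members near the 40th percentile have little signal over background.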
